A study of Homo sapiens with 16 samples.

Results

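Genes of the EGF family of growth factors were measured over 45 h of HER2 kinase inhibition in MCF10HER2 cells. The members were 7 ligand genes, AREG, EREG, HBEGF, TGFA, BTC, NRG1 and EGF, and the sheddase gene ADAM17. The probes were found by gene symbol, with no threshold on a measured value, for a set of genes picked with earlier results of these data known. They gave 11 probes of the 20589 probes on the array (8 of 18190 gene symbols). MCF10HER2 (MCF-10HER-2 in the sample labels) is a derivative of MCF10A, a nontransformed line of human breast epithelium, that stably over expresses HER2 (gene symbol ERBB2). All cultures were of this line and grew in a medium that held EGF protein and bovine serum albumin and no insulin. The 0 h culture was untreated, and 15 parallel cultures received 1 µM of the HER2 kinase inhibitor CP724,714 for 3 to 45 h in steps of 3 h. Each time point had 1 array and no replicate. Medium was also changed at the start of treatment, and only treated cultures cover the times after 0 h. Effects of the inhibitor, of fresh medium and of time in culture therefore cannot be told apart.

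EGF family ligands are made as precursors anchored in the plasma membrane, and metalloproteases of the ADAM group, with ADAM17 as the main one for several of them, release the soluble growth factor. AREG, EREG, HBEGF, TGFA, BTC and EGF bind the EGF receptor, some of them also bind ERBB4, and neuregulins such as NRG1 bind ERBB3 and ERBB4. HER2 has no known ligand of its own and signals as a partner of these receptors. In epithelial cells several of the ligand genes are known to be induced through the ERK cascade, so that cells feed their own receptors in an autocrine loop.

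Intensities were corrected for background, quantile normalized and put on the log2 scale, so a difference of 1 is a doubling. A probe counted as detected on an array where its deposited detection p-value was under 0.05, and was tested if this held on 3 or more arrays. Between 10363 and 11436 probes were detected on an array, and 12321 probes were tested. The 8 arrays from 24 to 45 h had a higher background (inferred negative control mean 176.2 to 186.8) than the 8 arrays from 0 to 21 h (145.5 to 159.7), and the 9 h and 18 h arrays were dim. Of the epithelial markers CDH1, EPCAM, KRT8 and KRT18, all 4 were tested and none was detected on fewer than 15 arrays, while none of 3 fibroblast markers was detected on any array. CD14 of the leukocyte list was detected on 16 arrays and rose by 1.46 (SE 0.33, limma adjusted p = 0.00318); the summed signal of CD14, PTPRC and CD3E was 171.1 at 0 h, at most 417 on the 0 to 21 h arrays and 271 to 382 on the 24 to 45 h arrays, and its part in the results was not tested. PECAM1 of the endothelial list was detected on 16 arrays and was higher on the treated ones (0.97, adjusted p = 0.0157), and CDH5 was detected on none. Among the basal epithelial keratins, KRT17 rose by 2.87 (adjusted p = 3.05e-06) and KRT5 fell by 0.47 (adjusted p = 0.00745) over the straight line in limma. By the same fit KRT8 of the epithelial list rose by 0.65 (adjusted p = 0.00645). KRT14, also a basal keratin, was detected on 1 array and not tested, and TP63 and CDH3 of the basal list did not pass that fit. Of the luminal markers, GATA3 did not pass it, and ESR1 and PGR were detected on no array. The part of these markers in the results was not tested either.

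Among the members, 2 EGF receptor ligand genes were detected on every array, HBEGF and TGFA, and both have an entry in the RefSeq promoter table (GRCh38.p14). The 250 bases before each transcription start are shown because HBEGF fell after HER2 inhibition and TGFA did not pass a test. The window lies at chr5:140346604-140346853 on the minus strand for HBEGF and at chr2:70553827-70554076 on the minus strand for TGFA, the farther upstream of 2 starts listed for that gene. Capitals mark each match to the GC box, searched as GGGCGG on both strands.
HBEGF: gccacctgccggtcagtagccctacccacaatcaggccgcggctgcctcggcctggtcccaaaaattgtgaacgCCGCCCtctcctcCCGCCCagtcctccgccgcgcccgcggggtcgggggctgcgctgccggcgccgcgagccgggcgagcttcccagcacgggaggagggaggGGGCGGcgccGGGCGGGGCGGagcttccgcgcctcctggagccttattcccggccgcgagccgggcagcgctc
TGFA: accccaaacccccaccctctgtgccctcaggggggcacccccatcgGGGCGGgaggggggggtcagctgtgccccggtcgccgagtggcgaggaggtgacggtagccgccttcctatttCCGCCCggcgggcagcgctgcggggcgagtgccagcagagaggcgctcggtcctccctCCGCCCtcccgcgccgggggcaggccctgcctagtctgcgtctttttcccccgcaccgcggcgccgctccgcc
The HBEGF window held 5 GC boxes, of which the 2 nearest the start overlap by 1 base. The TGFA window held 3, and the window of the other TGFA start held 0. ADAM17 held 3, AREG 1, and EREG, BTC and EGF 0. A GC box was found in 42.6% of the 35116 windows of this length in the table. Neither window held the AP-1 site TGANTCA (6.57% of all windows) or the cyclic AMP response element TGACGTCA (1.65%), on either strand. Among the other members with a window, AREG held 1 cyclic AMP response element, 65 bases before the start, and EGF held 1 AP-1 site, 17 bases before it.

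Of the 8 genes, 5 gave a tested probe: HBEGF, TGFA, BTC, NRG1 and ADAM17. HBEGF and NRG1 fell over the course, TGFA and ADAM17 did not pass any of the tests, and the dim BTC probe lay highest in the middle of the course. In the spline test of time dependence, 2 of 5 tested member probes passed (adjusted p under 0.05), against 42.4% of all tested probes. In the straight-line fit 2 of 5 fell and 0 rose, against 11.3% and 13.1% of all probes. On the treated arrays 2 of 5 were lower than at 0 h and 0 were higher, against 9.03% and 10.5%. In each case the 2 probes were those of HBEGF and NRG1. All these levels are relative to the other RNAs of the culture, and less RNA per cell cannot be told apart from fewer cells that make it.

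**Figure D1:**
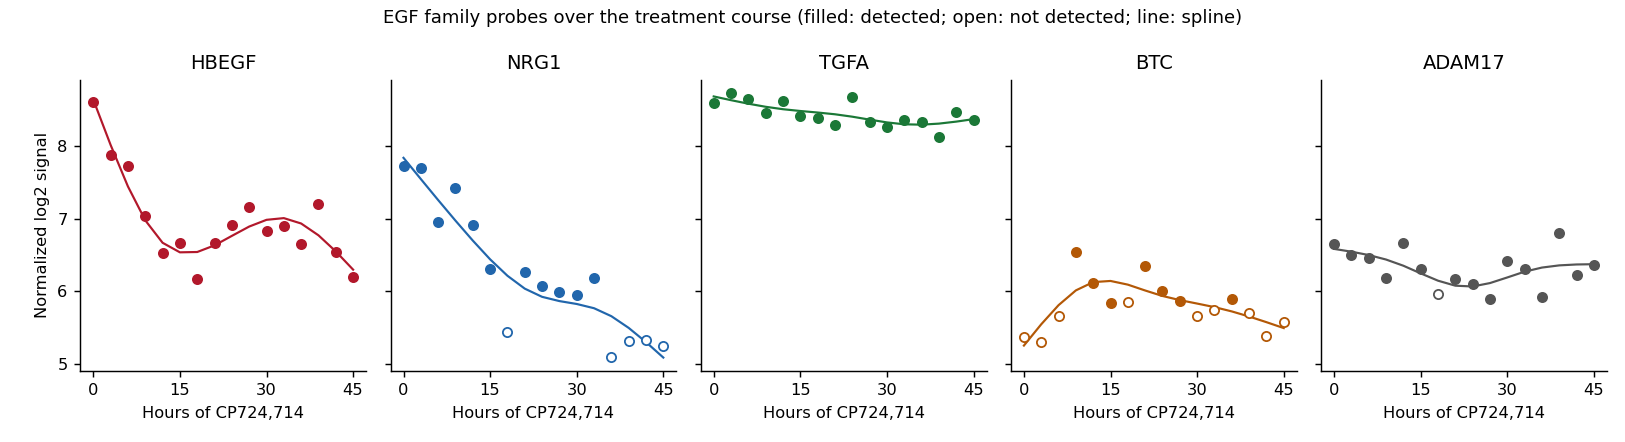
Normalized log2 signal (vertical axis) of the 5 tested probes against hours of CP724,714 (horizontal axis), 1 point for each of 16 arrays. Filled points were detected, open points were not, and the line is the fitted spline; HBEGF dropped within the first hours from 8.61 to between 6.17 and 7.20 from 9 h on, NRG1 declined toward background, and TGFA stayed between 8.13 and 8.74.

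HBEGF encodes heparin-binding EGF-like growth factor, a ligand of the EGF receptor and ERBB4. On the arrays of 0, 3, 6, 9, 12, 15, 18 and 21 h its log2 signal was 8.61, 7.87, 7.73, 7.04, 6.53, 6.67, 6.17 and 6.66. On those of 24, 27, 30 and 33 h it was 6.91, 7.17, 6.82 and 6.89, and on those of 36, 39, 42 and 45 h it was 6.65, 7.20, 6.54 and 6.19. The untreated array was the highest of the course, and all 15 treated arrays lay below it. The probe was detected on all 16 arrays; its deposited intensity was 545 at 0 h, where the inferred negative control mean was 159.7, and 183 at 18 h, where that mean was 147.

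Most of the decrease of HBEGF was seen early. Compared with the untreated array, the signal was 1.66-fold lower after 3 h, 1.84-fold after 6 h, 2.96-fold after 9 h and 4.22-fold after 12 h. The lowest level, at 18 h, was 5.40-fold below the untreated array. The 18 h array was dim, and the detection p-value of the probe on it, 0.0424, was just under the limit. At 45 h the signal was 5.33-fold lower. The fitted curve reached its first low between 15 h and 18 h at 6.54, was higher again at 33 h (7.01), and ended at 6.30. It spanned 2.34 with a residual SD of 0.25 (adjusted p = 5.5e-05, limma moderated F-test, 16 arrays). When the 16 levels were put in order, 3 of the 15 gaps between neighbours were larger than the residual SD. The largest of them was the gap of 0.73 between 0 h and 3 h. From 9 h on, neighbours in this order mostly differed by less than the scatter, which does not cover levels farther apart in it.

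The mean HBEGF difference of the treated arrays from the untreated one was -1.74 (SE 0.26, limma adjusted p = 0.000172). The straight line over 45 h fell by 1.24 (SE 0.38, adjusted p = 0.0229). The straight-line call rests on the ends of the course: the line fell by 0.81 without the 0 h array (adjusted p = 0.121), by 1.12 without the 3 h array (0.0621) and by 1.17 without the 45 h array (0.0611). Within the arrays from 0 to 21 h alone the spline range was 2.11 (adjusted p = 0.00585), and within the arrays from 24 to 45 h alone it was 0.69 (adjusted p = 0.135).

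NRG1 encodes neuregulin 1, a ligand of ERBB3 and ERBB4, and has 4 probes on the array, of which 1 (ILMN_29069) was tested. The log2 signals of 0, 3, 6, 9, 12, 15, 18 and 21 h were 7.73, 7.70, 6.96, 7.43, 6.91, 6.31, 5.44 and 6.27. Those of 24, 27, 30 and 33 h were 6.07, 5.99, 5.95 and 6.18, and those of 36, 39, 42 and 45 h were 5.09, 5.32, 5.33 and 5.24. The 0 h and 3 h arrays were highest and close to each other, and the last 4 arrays, with the dim 18 h array, were lowest. On those 5 arrays the probe was not detected, so the level there is only a bound: with each array set to the median signal of probes that were just detected on it, the 36 to 45 h arrays were at least 3.63-fold below the 0 h array.

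The NRG1 curve spanned 2.76 (residual SD 0.39, adjusted p = 7.5e-05, limma moderated F-test). The straight line over 45 h fell by 2.48 (SE 0.30, adjusted p = 1.3e-05), with the undetected arrays at their measured values. The mean difference of the treated arrays from the untreated one was -1.59 (SE 0.35, adjusted p = 0.00368), and 15 of 15 were lower, but on the arrays from 0 to 21 h alone this difference was -0.99 with an adjusted p of 0.0946. Within those arrays the spline range was 1.93 (adjusted p = 0.0332), and within the arrays from 24 to 45 h it was 1.07 (adjusted p = 0.0888).

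The other 3 NRG1 probes, ILMN_23389, ILMN_29179 and ILMN_5412, were not detected on any array. Their signals ranged from 4.68 to 5.25, from 4.65 to 4.94 and from 4.77 to 5.63. At background these 3 probes show neither a fall nor its absence, so the NRG1 result rests on the tested probe alone. The sources used here do not say which transcripts each probe reads.

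TGFA encodes transforming growth factor alpha, an EGF receptor ligand and a classical substrate of ADAM17. Its signal was 8.60 at 0 h, and on the 15 treated arrays it had a median of 8.40, from 8.13 at 39 h to 8.74 at 3 h. Of these arrays, 11 lay below the untreated one and 4 above it, so the groups overlap. The straight line fell by 0.36 (SE 0.14, -0.64 to -0.08 at 2 SE either way, unadjusted p = 0.0191 and adjusted p = 0.0702 in limma), and the spline range was 0.39 (adjusted p = 0.219). The straight line passed the threshold when fewer probes were tested, at an adjusted p of 0.0486 among the probes detected on all 16 arrays and 0.0455 with a stricter detection limit. No treated array was 1.7-fold below 0 h.

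BTC encodes betacellulin, which binds the EGF receptor and ERBB4. It was detected on 7 of 16 arrays and not on the first 3. The log2 signals of 0, 3 and 6 h were 5.37, 5.29 and 5.66, those of 9, 12, 15, 18 and 21 h were 6.54, 6.11, 5.84, 5.85 and 6.35, and from 24 to 45 h they lay between 5.39 and 6.01. Of the treated arrays, 14 of 15 were above 0 h, the highest on the dim 9 h array, and no pair of successive arrays was 1.7-fold above 0 h, for BTC or any other member (0 of 5 tested member probes, against 17.3% of all tested probes). The spline range was 0.89 (adjusted p = 0.0698), the straight line changed by -0.11 (SE 0.27, adjusted p = 0.814), and the treated arrays averaged 0.46 above 0 h (SE 0.29, adjusted p = 0.298), all in limma. The spline call was gained with 3 degrees of freedom (adjusted p = 0.0459), with array weights (0.0316), without the 9 h and 18 h arrays (0.0493) and without the 15 h array (0.0498). Array weights also gave a straight line of -0.64 for BTC (adjusted p = 0.0332).

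**Figure D2:**
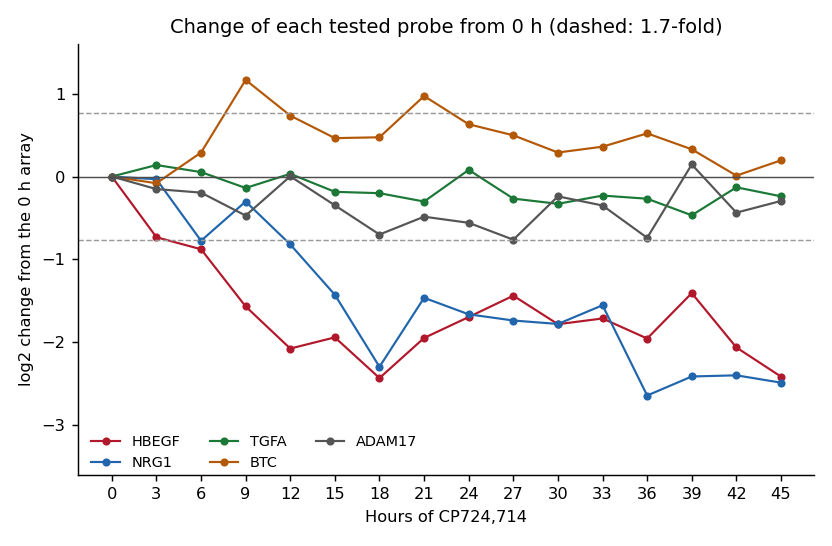
Change in log2 signal from the untreated 0 h array (vertical axis) against hours of CP724,714 (horizontal axis) for the 5 tested probes, 1 point per array, with dashed lines at a 1.7-fold change either way. HBEGF crossed the lower line at 6 h and remained below it, NRG1 touched it at 6 h and remained below it from 12 h, and no value of TGFA or ADAM17 crossed either line.

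The order in which the ligands fell was read from the first array that was 1.7-fold or more below 0 h together with the next one. By this rule 2 of 5 tested member probes fell, against 16.2% of all tested probes. HBEGF fell first, at 6 h, and was past the midpoint to its late level by 9 h. NRG1 followed at 12 h and was past its midpoint at 15 h; a single earlier array, at 6 h, was 1.71-fold lower. At 3 h the change was -0.73 for HBEGF and -0.03 for NRG1. HBEGF was the earlier of the pair in 7 of 7 settings that gave a time for both, at 3 h to 9 h against 12 h to 15 h. All of these settings kept the dim 9 h array, on which NRG1 was 1.23-fold below 0 h in the main setting. That array parts the 6 h and 12 h arrays, on which NRG1 was 1.71-fold and 1.76-fold lower in the main setting. With the 9 h array passed over and the other values unchanged, the rule gives 6 h for NRG1, the same time as for HBEGF. In the main setting the lead of HBEGF by this rule therefore rests on the dim 9 h array. The other settings were not read without it. With 1 array per time point this order is a description, and it was not tested.

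ADAM17, the metalloprotease that sheds TGFA, AREG, HBEGF and other precursors, was detected on 15 of 16 arrays, the exception being the dim 18 h array. Its signal was 6.66 at 0 h, and on the treated arrays it had a median of 6.31, from 5.90 at 27 h to 6.80 at 39 h. Of these, 13 were below the untreated array and 2 above it, and the groups overlap. The straight line changed by -0.20 (SE 0.23, -0.65 to 0.25 at 2 SE either way, adjusted p = 0.577), the spline range was 0.52 with a residual SD of 0.25 (adjusted p = 0.333), and the mean difference of the treated arrays from 0 h was -0.37 (SE 0.27, adjusted p = 0.380), in limma. The largest decrease on a single array, -0.76 at 27 h, was just short of the 1.7-fold limit. None of the 15 gaps between neighbouring levels was larger than the residual SD. Such gaps are mostly small in any ordering of 16 levels, and NRG1, which fell, had only 3. The count therefore does not bear on a change of ADAM17 over time.

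Because the background of the arrays stepped between 21 h and 24 h, an early slope over the 0 to 21 h arrays and a late slope over the 24 to 45 h arrays were also fitted, each with a level of its own. HBEGF had an early slope of -2.15 per 21 h (SE 0.33, adjusted p = 0.000236) and a late slope of -0.61 (SE 0.33, adjusted p = 0.317). The difference between the slopes was 1.55 (SE 0.47, adjusted p = 0.0238). For NRG1 the early and late slopes were -2.00 (SE 0.36, adjusted p = 0.000749) and -1.01 (SE 0.36, adjusted p = 0.118), and their difference of 1.00 had an adjusted p of 0.160. The early slope was thus steeper for HBEGF, while for NRG1 the difference did not pass the test.

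BTC had early and late slopes of 0.81 (SE 0.30, adjusted p = 0.0504) and -0.43 (SE 0.30, adjusted p = 0.453), which differed by -1.24 (SE 0.42, adjusted p = 0.0412). The differences for TGFA (0.20, adjusted p = 0.617) and ADAM17 (0.86, adjusted p = 0.113) did not pass. In all, 2 of 5 tested member probes had early and late slopes that differed, against 24.4% of all tested probes in limma. By the early slope 2 of 5 fell, against 14.7%, and by the late slope 0 of 5 fell, against 2.33%. The call of HBEGF was lost without the 0 h array (1.17, adjusted p = 0.0791), the 18 h array (1.42, 0.0522) or the 24 h array (1.35, 0.0849), and that of BTC was lost on leaving out 10 of the 16 arrays in turn.

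**Figure D3:**
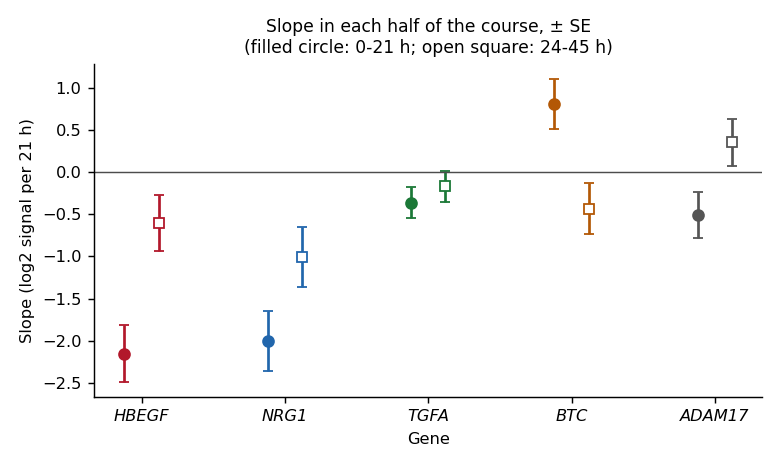
Slope of log2 signal per 21 h (vertical axis) for each tested gene (horizontal axis), with filled circles for the arrays from 0 to 21 h, open squares for those from 24 to 45 h, and bars of 1 SE. The early slopes of HBEGF and NRG1, near -2.15 and -2.00, lie below all others, and BTC alone has a positive early slope, at 0.81.

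AREG, EREG and EGF, all ligands of the EGF receptor, have 1 probe each, and none was detected on any array. The lowest detection p-value was 0.154 for AREG at 42 h, 0.148 for EREG at 15 h and 0.203 for EGF at 0 h. Their deposited intensities ranged from 130.2 to 207 for AREG, from 145.8 to 195.1 for EREG and from 138.1 to 201 for EGF. With the 3 undetected NRG1 probes, these gave 96 values, and all 96 lay within 2 SD of the inferred negative control mean of their array. No fall or rise of these ligands could be measured, and a probe at background does not show that its RNA was absent. If the detection filter was dropped, the line through the EREG values fell by 0.43 with an adjusted p of 0.0280 in limma, through values of which none was detected.

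**Figure D4:**
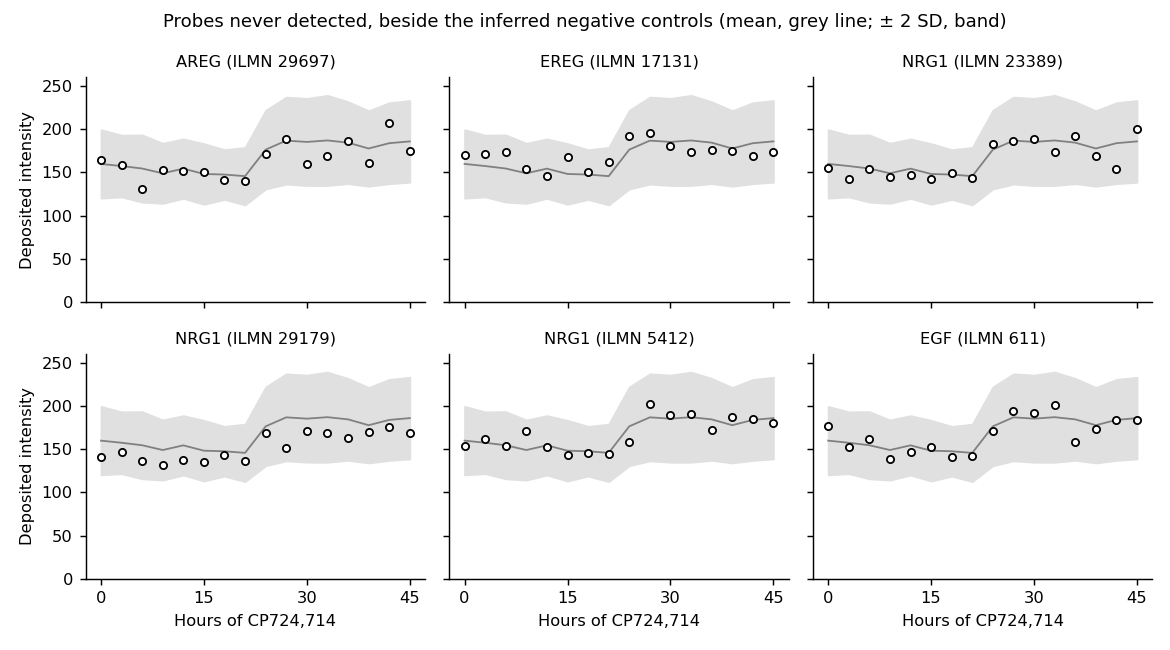
Deposited intensity (vertical axis) of the 6 member probes that were never detected, against hours of CP724,714 (horizontal axis), 1 open point per array. The grey line and band are the mean and 2 SD of the inferred negative controls of each array; all 96 points lie in the band, which steps up between 21 h and 24 h.

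The genes whose course was most like that of a member were found by the root mean square difference between the mean-centred log2 signals over 16 arrays, among 8670 probes. Those nearest to HBEGF were LSS (0.26), SCD (0.28) and BHLHB2 (0.29). LSS, lanosterol synthase, went from 12.67 at 0 h to 10.62 at 12 h and 10.86 at 45 h, and SCD, stearoyl-CoA desaturase, from 15.01 to 13.64 and 13.64. Nearest to NRG1 were MSX1 (0.30), PHGDH (0.31) and CCRN4L (0.32). The same measure between HBEGF and NRG1 was 0.59.

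Among the other ligand genes, EPGN, which encodes epigen, fell by 1.24 over the straight line (SE 0.32, adjusted p = 0.00742). NRG2 and NRG3 did not pass, and NRG4 was not detected. Of these 3 tested genes 1 fell and 0 rose, against 11.3% and 13.1% of all tested probes. The EPGN signals of 0, 12 and 24 h were 6.92, 7.94 and 7.80, and from 36 to 45 h it lay between 6.11 and 6.37. Its treated arrays did not differ from 0 h on average (0.07, adjusted p = 0.914), unlike the early decrease of HBEGF; the difference between these courses was not tested.

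Of the receptors, ERBB3, which binds neuregulins, rose by 1.23 over the straight line (SE 0.33, adjusted p = 0.0110) by the brighter of its probes. The rise was early and not steady: this probe went from 9.25 at 0 h to 10.50 at 3 h and 11.47 at 6 h. It was at 10.35 at 12 h and 11.45 at 45 h. Its treated arrays averaged 1.76 above 0 h (limma adjusted p = 0.000269). The dimmer ERBB3 probe changed by 0.12 over the line (adjusted p = 0.737), and its treated arrays by -0.38 (adjusted p = 0.230). The brightest EGFR probe changed by -0.34 (SE 0.16, adjusted p = 0.130), but another EGFR probe rose by 1.17 (SE 0.23, adjusted p = 0.00116). The dimmest tested EGFR probe changed by -0.74 over the line (adjusted p = 0.137) and passed the spline test (range 1.41, adjusted p = 0.0263). It was at 6.16 at 0 h and highest on the dim 9 h array, at 7.82. The EGFR probes thus disagree, and the remaining one was not detected. ERBB4 was not detected. The ERBB2 probes were detected on 7 and 1 of 16 arrays in a line labelled as over expressing HER2, and the part of the transcript that they read is not given in the sources used here, so they do not check that label. Detection calls of the brighter ERBB2 probe did not follow its level: it was detected at 5.89 (0 h) but not at 6.25 (45 h). Of 3 tested receptor genes, 1 rose and 0 fell over the straight line, against 13.1% and 11.3% of all tested probes.

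Of 14 tested shedding and processing genes other than ADAM17, 2 rose and 0 fell in the straight-line fit, against 13.1% and 11.3% of all tested probes. They were RHBDL2, a rhomboid protease, at 1.43 (SE 0.39, adjusted p = 0.0110) and TIMP1, a metalloprotease inhibitor, at 0.56 (SE 0.17, adjusted p = 0.0213). On the treated arrays 5 of the 14 were higher than at 0 h and 0 were lower, against 10.5% and 9.03% of all tested probes. These 5 were RHBDL2 (1.55), the proprotein convertase gene FURIN (1.05, adjusted p = 0.000615), the inactive rhomboid genes RHBDF1 (1.00, adjusted p = 0.00368) and RHBDF2 (0.97, adjusted p = 0.0194, by the brighter of its probes; the other gave -0.11, adjusted p = 0.741), and TIMP1 (0.84). RHBDL2 was detected on 14 of 16 arrays. Its 0 h signal of 5.32 lay below the 5.88 of probes just detected on that array, so its changes start from background. In the spline test 6 of the 14 genes were time-dependent, against 42.4%. The metalloprotease gene ADAM19 had the widest spline range of this list, 2.88 (adjusted p = 0.00321), by the brighter of its probes. Its straight line (-1.41, adjusted p = 0.143) and its treated arrays against 0 h (1.48, adjusted p = 0.0962) did not pass. The dimmer ADAM19 probe was not detected. ADAM10, the sheddase of the EGF and BTC precursors, changed by -0.12 (adjusted p = 0.675). Of 7 co-factor and trafficking genes, the tetraspanin gene CD9 rose by 0.64 (SE 0.10, adjusted p = 0.00016) and the heparan sulfate proteoglycan gene SDC1 fell by 0.64 (SE 0.15, adjusted p = 0.00309). The SDC1 probe was called detected on 6 arrays although its mean signal was 10.36, so its detection calls do not follow its level. The median straight-line change was 0.06 over the shedding list and 0.04 over the co-factor list, beside 0.01 over all tested probes.

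Downstream of the receptors, 3 of 15 tested adaptor and signalling genes fell and 3 rose over the straight line, against 11.3% and 13.1% of all tested probes, with NRAS (-1.30) and HRAS (-1.09) the largest decreases and MAPK3 (1.55) and BRAF (0.71) the largest increases. BRAF was detected on 8 of 16 arrays and was at 4.90 at 0 h, so its increase starts from background. On the treated arrays 1 of these 15 genes was lower than at 0 h and 6 were higher, against 9.03% and 10.5%. Of 18 tested ERK target and feedback genes, 7 fell and 2 rose over the straight line, against 11.3% and 13.1% of all tested probes. On the treated arrays 4 of these 18 were lower than at 0 h and 3 were higher, against 9.03% and 10.5%. The largest decreases were PHLDA1 (-2.00, SE 0.20, adjusted p = 1.32e-06) and the AP-1 subunit gene FOSL1 (-1.31, SE 0.26, adjusted p = 0.00106). LRIG1 (1.52, SE 0.32, adjusted p = 0.00179) and ERRFI1 (0.75, SE 0.15, adjusted p = 0.00149), both negative regulators of EGF receptors, rose. The median change over the ERK list was -0.21.

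**Figure D5:**
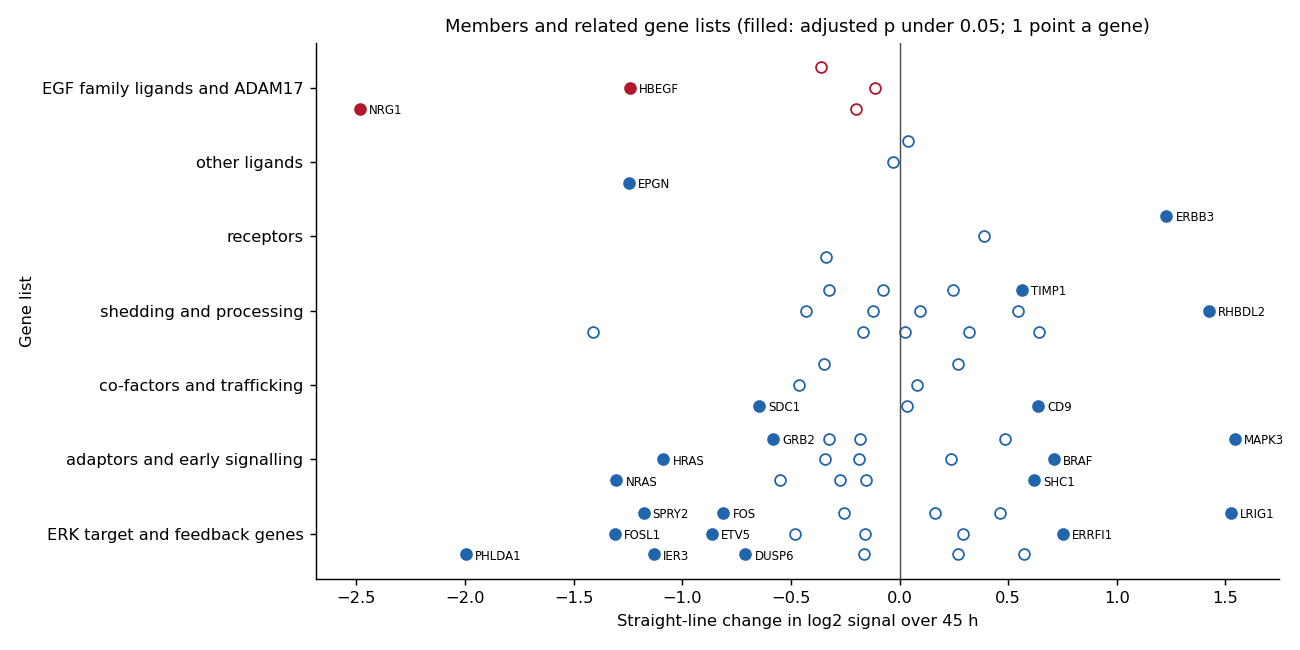
Straight-line change in log2 signal over 45 h (horizontal axis) of each tested gene in the member list (red) and in 6 related gene lists (blue), 1 point per gene, filled where the limma adjusted p was under 0.05; height within a row has no meaning. NRG1 (-2.48) has the largest decrease of the genes shown and HBEGF (-1.24) lies beside EPGN (-1.24), while no shedding gene falls with a filled point.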

How the data were processed

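Each of 16 MCF10HER2 cultures gave 1 array (Illumina human Ref-8 v2). The authors deposited, for each probe and array, an intensity without normalization between arrays and a detection p-value against the negative controls of that array; the methods name quantile normalization for the study's own comparisons. The scanner software settings are not given in the sources used here. Groups and hours come from the sample labels.

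Intensities were background-corrected as in neqc of limma 3.58.1 (R 4.3.3), with an offset of 16, quantile normalized and log2 transformed; the offset shrinks fold changes of dim probes. The deposited detection p-values are whole steps of 1 in 708, apart from those of 1482 probes, none of them a member. The usual inference of negative controls from all p-values then gave control SDs of 212 to 491, so the controls were inferred from whole steps alone, with Huber's robust mean and SD (SDs of 14.4 to 26.1). This was chosen after seeing the data, and the limma default is an alternative.

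In limma, with a mean-variance trend, the detected probes (at least 3 arrays) were fitted with a natural spline (4 df), a straight line, a term for treated against 0 h beside a centred spline (3 df), and early and late slopes. The spread in these tests is the scatter of single arrays about a curve, and the comparison with 0 h assumes that this lone array varies like the others. P-values were adjusted by the Benjamini-Hochberg procedure over 12321 probes. The number of arrays limits the precision. Scripts were tested on simulated data.

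The named genes are all member probes, the largest called changes of 6 related lists, all receptors and the 3 genes nearest to each changed member. Shedding genes higher on the treated arrays, ADAM19 and the marker genes given values were named after their values were seen. An undetected signal was bounded by the median signal of probes just under the detection limit. For a gene with several probes in a list, the brightest was used. The members and lists were chosen with earlier results of these data known. Symbols are those of the array table (BHLHB2 and CCRN4L are older symbols); 3 list genes were matched by synonym. Promoter sequences are from RefSeq (GRCh38.p14), which had windows for 7 of 8 members that were searched; none is given for NRG1. Alternatives covered background, normalization, filters, spline flexibility, array weights, blocks of arrays and single arrays.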

Additional observations from a re-analysis of the deposited data

Results flagged for a closer look

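The slope of HBEGF in the arrays from 24 to 45 h differed from its slope in the arrays from 0 to 21 h by 1.55 log2 per 21 h (SE 0.47, limma adjusted p = 0.0238), with slopes of -2.15 early and -0.61 late. The slopes of BTC differed by -1.24 log2 per 21 h (SE 0.42, adjusted p = 0.0412), with 0.81 early and -0.43 late, and BTC was not detected on 9 of 16 arrays. Both were picked out because a test of the difference between the early and late arrays passed the threshold. The array background also stepped up between these arrays, and its part in the differences was not tested.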

How the results depend on the processing

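No paired analysis was possible because the arrays were single ones, without replicate numbers. Of 75 values of HBEGF and NRG1 in the spline, straight-line and untreated comparisons under other settings, 66 kept direction and side of the threshold, 9 lost the call and none reversed. With the probes detected on all 16 arrays, 1 member probe was time-dependent and 1 was lower than at 0 h, since NRG1 was not among them. On the arrays from 0 to 21 h alone 1 was lower than at 0 h (HBEGF). On the arrays from 24 to 45 h alone 0 were time-dependent and 1 fell (NRG1). With the 4 sets of 4 successive time points as a block, 0 were time-dependent (HBEGF range 2.56, adjusted p = 0.0511; NRG1 1.78, 0.515) and 0 fell; of all probes 1 fell then, as the block takes up most of the time course. Array weights moved the HBEGF line to -0.37 (adjusted p = 0.407) and that of BTC to -0.64 (adjusted p = 0.0332), so the 2 probes called falling were then NRG1 and BTC. Under limma's default control moments, an alternative chosen after seeing the data, both remained called at smaller sizes (HBEGF line -0.29, NRG1 -0.30) and no member fell 1.7-fold; with plain moments NRG1 fell at 15 h. HBEGF fell first at 3 h with a 1.5-fold limit or median scaling, and at 9 h with a 2-fold limit, the mean of 0 h and 3 h as baseline or normexp from the signals alone. NRG1 fell first at 15 h with a 2-fold limit or normexp from the signals alone. Over arrays left out in turn, the probes falling numbered 1 to 2, and those that were time-dependent 2 to 3. The slope difference was 1.43 for HBEGF with median scaling (adjusted p = 0.0526), and the added moments took the call of BTC away (adjusted p = 0.0598 and 0.0618) and gave NRG1 one (0.0117 and 0.0171). Signal over background limits BTC, ADAM17, late NRG1 and the low levels of HBEGF. The HBEGF intensity lay 385.8 above the inferred control mean at 0 h, 35.7 above it at 18 h and 65.2 at 45 h. The size of its fall changed with the background correction and offset: its line was -1.24 in the main setting and -0.85 with normexp from the signals alone.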
